A study of Mus musculus with 36 samples.

Results

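The Hoxb genes form a cluster of homeobox genes on mouse chromosome 11. Every probe of the deposited array table whose gene symbol was Hoxb1 to Hoxb9 or Hoxb13 was taken, which gave 10 genes and 15 probes, of 30869 gene symbols and 45281 probes on the array. This rule used no measured value, though the members were chosen with earlier results of these data known. Hoxb1 and Hoxb7 had 2 probes each, Hoxb3 had 4, and each of the other 7 genes had 1.

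Hox genes encode transcription factors with a homeodomain that give cells their position along the anteroposterior axis. Genes at the 3′ end of a cluster are in general activated earlier and reach further anteriorly than those at the 5′ end, a property known as collinearity. Retinoic acid, Wnt and Fgf signals and the Cdx transcription factors are known to act on Hox clusters in the caudal embryo. From the 3′ end the order is Hoxb1 to Hoxb9, with Hoxb13 at the 5′ end behind a gap.

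The series measured RNA of microdissected regions of mouse embryos while the body axis elongates, from gastrulation to the end of tail growth. All embryos were of the outbred MF1 strain, and each array held RNA of a pool of dissected pieces. RNA was amplified and hybridised to Illumina bead arrays, on which the brightness of a probe measures the amount of its transcript. A question of the series was how progenitors of the spinal cord and mesoderm differ between regions and days, and Hox genes mark such differences.

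Headfold embryos at E7.5 gave an anterior region (A; pools of 9, 13 and 25 pieces), a posterior region (P; 9 and 13) and a proximal posterior region (PP; 12 and 15). At E8.5, with 2 to 5 somites, the rostral node (RN) and the anterior (St1) and posterior (St5) ends of the primitive streak each had 2 pools of 45 pieces. The node-streak border (NSB) had pools of 45, 45 and 57 pieces and the caudal lateral epiblast (CLE) pools of 12, 43 and 36. The chordoneural hinge (CNH), the tail bud region that follows the node-streak border, was taken on 5 days. At E9.5 (22 to 25 somites) its pools held 6 and 10 pieces, at E10.5 (32 to 35 somites) 17 each, and at E11.5 (40 to 45 somites) 38, 29 and 52. At E12.5 (50 to 55 somites) they held 15 and 33 pieces and at E13.5 (60 to 63 somites) 48 and 74. The tissue posterior to the hinge (P-CNH) had pools of 6 and 11 pieces at E9.5, 17 each at E10.5, and 33 and 65 at E11.5. The replicates are pools of embryos, so p-values measure the spread between pools and arrays. Tissue was measured in bulk, so fewer cells that express a gene and less RNA in each cell cannot be told apart.

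Values are given as normalised log2 intensity, on which a step of 1 is a doubling. A probe was detected on an array where its detection p-value was under 0.01. All 15 Hoxb probes were detected on at least 1 of the 36 arrays and entered the test, Hoxb8 through 5 arrays and Hoxb13 through 4. A gene with several probes is given by the probe with the highest mean. A gene said to lead a marker sum, or to be the most abundant in it, had the brightest probe. Levels of different probes do not rank the amounts of their transcripts. Differences come from a linear model with terms for the 16 regions and 3 batches of 12 arrays, with their standard error (SE). A difference is called where limma's adjusted p was at most 0.05 and the fold at least 1.5.

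Between 10814 and 16256 probes were detected per array, the fewest on E13.5 CNH replicate 2. That array, CLE replicates 1 and 2 and E11.5 P-CNH replicate 1 had the 4 lowest counts. They are called the 4 dimmest arrays below by this count, and not by their level over background. Batch 1 held all arrays of RN, St1, St5 and both E10.5 regions with NSB replicates 1 and 2, and NSB replicate 3 in batch 3 was its only tie to the other arrays. On that array Hoxb3, Hoxb4 and Hoxb9 read far below the other NSB arrays, and 13147 probes were detected on it against 15530 and 15846. Every comparison of batch 1 with another batch therefore rests on 1 array, and comparisons within batch 1 are given beside the fit to all arrays.

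**Figure D1:**
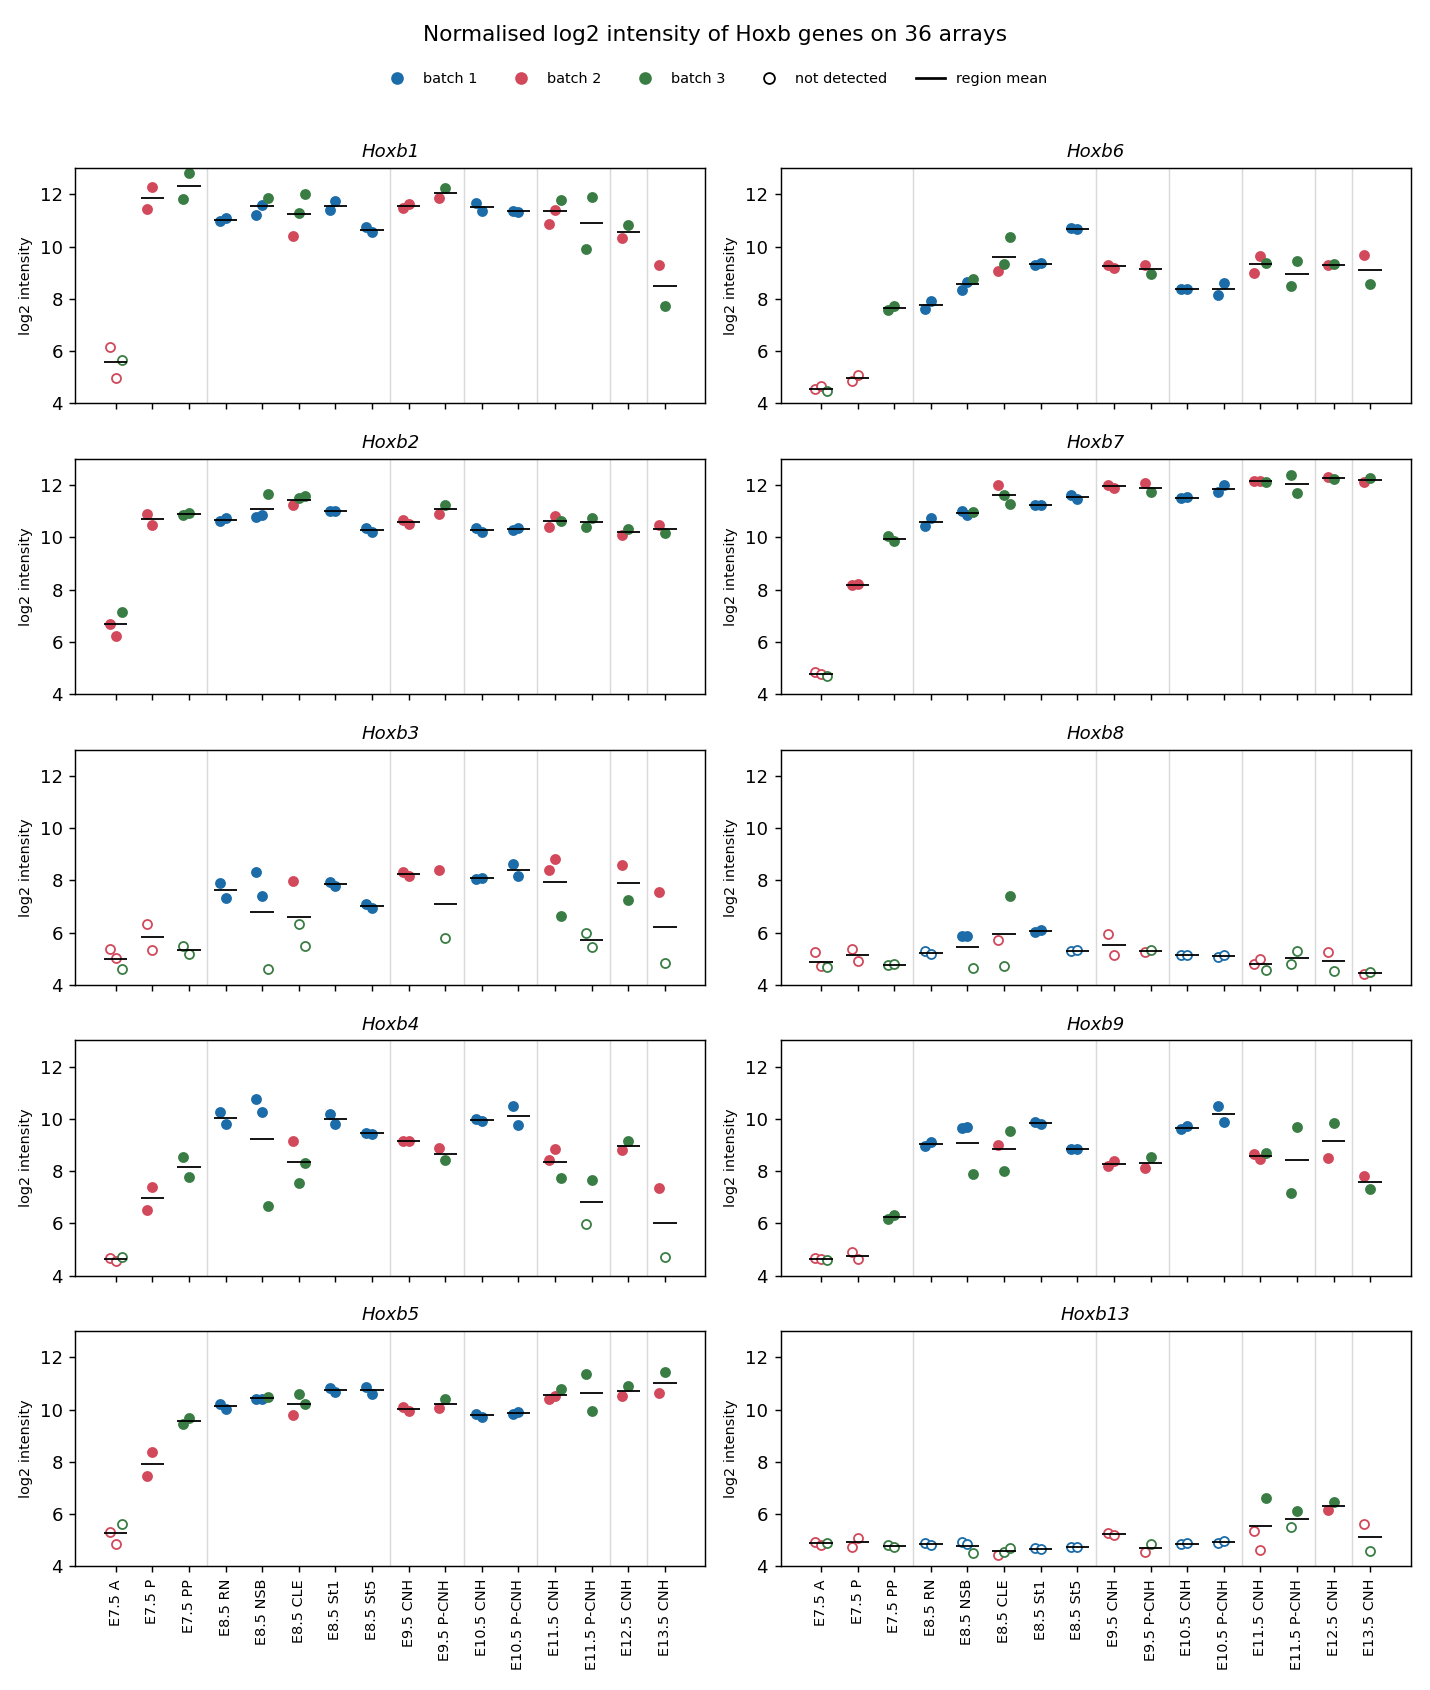
Normalised log2 intensity of each Hoxb gene, from Hoxb1 to Hoxb13, on 36 arrays in 16 regions ordered by day; points are arrays coloured by batch, open where the probe was not detected, and bars are region means. E7.5 A lay lowest for 8 of the 10 genes, and Hoxb8 and Hoxb13 stayed near the lower end in most regions.

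Promoters of 3 of the 10 genes, from 250 bases before to 50 after the start of the gene, were found in the RefSeq table used here (build GRCm38.p6). They are shown for Hoxb1, Hoxb4 and Hoxb8, which differed in where they were detected. The windows lie on the plus strand of chromosome 11 at chr11:96365508-96365807 for Hoxb1, chr11:96318017-96318316 for Hoxb4 and chr11:96281655-96281954 for Hoxb8. They were searched on both strands for TGATNNAT, letters known from sites of Hox proteins paired with Pbx, and for TTTATG, letters known from Cdx sites. Capitals mark the matches, which do not overlap.
Hoxb1: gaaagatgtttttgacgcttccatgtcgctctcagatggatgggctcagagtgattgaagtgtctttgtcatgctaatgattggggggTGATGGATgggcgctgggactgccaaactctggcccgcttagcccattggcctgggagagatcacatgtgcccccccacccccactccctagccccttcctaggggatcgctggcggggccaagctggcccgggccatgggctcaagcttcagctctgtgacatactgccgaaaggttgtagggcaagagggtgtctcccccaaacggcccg
Hoxb4: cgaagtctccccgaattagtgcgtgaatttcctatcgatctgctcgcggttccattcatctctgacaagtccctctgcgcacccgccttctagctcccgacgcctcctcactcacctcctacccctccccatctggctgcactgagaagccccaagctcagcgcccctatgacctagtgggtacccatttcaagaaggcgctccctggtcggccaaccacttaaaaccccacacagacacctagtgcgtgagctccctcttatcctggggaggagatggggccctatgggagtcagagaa
Hoxb8: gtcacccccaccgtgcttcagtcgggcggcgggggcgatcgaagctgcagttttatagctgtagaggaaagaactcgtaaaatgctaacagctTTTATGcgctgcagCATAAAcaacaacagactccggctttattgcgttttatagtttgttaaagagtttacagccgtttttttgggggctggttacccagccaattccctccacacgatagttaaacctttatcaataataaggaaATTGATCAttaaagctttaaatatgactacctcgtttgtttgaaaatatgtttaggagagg
TGATNNAT matched once in the Hoxb1 window, on the plus strand, and once in that of Hoxb8, on the minus strand. TTTATG matched on each strand of the Hoxb8 window, and Hoxb4 held neither. Of 32851 promoters of this length, 8.85% held TGATNNAT and 11.9% held TTTATG. A match describes letters only, and binding was not measured.

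Detection was read from the regions in which the probe of a gene with the highest mean was detected on every array. In E7.5 A this held for 1 of the 10 genes, Hoxb2, and in P for 5, Hoxb1, Hoxb2, Hoxb4, Hoxb5 and Hoxb7. In PP it held for 7, with Hoxb6 and Hoxb9 added. At E8.5 it held for 8 genes in RN, 7 in NSB, 7 in CLE, 9 in St1 and 8 in St5. Detected probes of all genes numbered 16220 and 16180 in RN, 15530, 15846 and 13147 in NSB and 11062, 12289 and 14747 in CLE. In St1 they numbered 15659 and 16256, and in St5 15481 and 15926. The counts of Hoxb genes are not adjusted for this, and its part in them was not tested. The Hoxb3 probe with the highest mean was detected on no E7.5 array and on both arrays of RN, St1 and St5. Another Hoxb3 probe, ILMN_3150064, was detected on PP replicate 2, at 5.81. With any probe of a gene allowed, a choice made after the data were seen, the counts became 8 in NSB and E9.5 P-CNH and 7 in E11.5 P-CNH and kept their values elsewhere. For these probes and this limit, the day of first detection departed from the place in the cluster at Hoxb3 and Hoxb8. Hoxb7 was detected in P and PP and Hoxb6 in PP, regions of the same day, so no order in time is given for them. Hoxb8 was first detected on every array in St1 and Hoxb9 in PP, a day before. A probe that is not detected has an upper limit that differs between probes and arrays. With a detection p-value under 0.05 the count in P was 6, with Hoxb3 added (0.0139 and 0.0417).

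**Figure D2:**
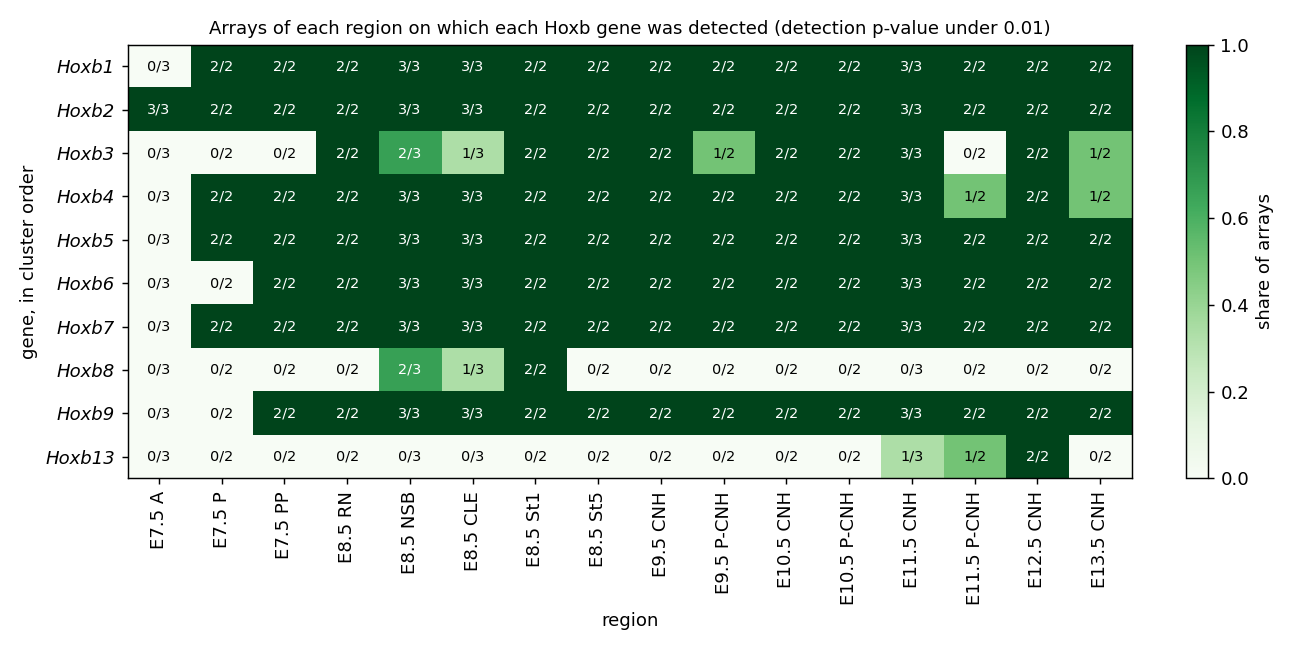
Number of arrays on which the highest-mean probe of each Hoxb gene was detected, over the arrays of that region, with genes in cluster order down the side and regions by day; darker cells mark a larger share of arrays. Detection ranged from 1 gene on every array in E7.5 A to 9 genes in E8.5 St1.

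In the tail bud, 8 genes were detected on every array in E9.5 CNH, both E10.5 regions and E11.5 CNH, and 7 in E9.5 P-CNH. The count was 6 in E11.5 P-CNH, 9 in E12.5 CNH and 6 in E13.5 CNH. Detected probes of all genes numbered 12280 and 15332 on these E11.5 arrays, 15030 and 16011 at E12.5 and 13979 and 10814 at E13.5. The counts of Hoxb genes are not adjusted for this, and its part in them was not tested. Hoxb13 was detected on 1 of 3 E11.5 CNH arrays, 1 of 2 E11.5 P-CNH arrays and both E12.5 CNH arrays, and nowhere else. Hoxb8 was detected on 2 NSB arrays, 1 CLE array and both St1 arrays.

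Posterior against anterior at E7.5 asks which Hoxb genes had begun to be expressed near the primitive streak. Of the 10 Hoxb genes, 5 were called in P against A, all higher in P, where 2.73% of the 21712 tested probes were called. The median difference of the 10 genes was 1.21 and that of all tested probes -0.04. Hoxb1, which specifies a segment of the hindbrain, read 6.16, 4.95 and 5.65 on the A arrays and 11.42 and 12.26 on those of P. It was detected on no A array and the groups lay far apart. Where a group had no detected array, its floor was taken as the mean over its arrays of the lowest level of a detected probe or the probe's own level, whichever was higher, and the fold is a lower bound without batch adjustment. The bound is left out where the fitted fold, adjusted for batch, was smaller or where the higher group was not detected on every array. Each bound holds only for the background correction and offset of the main fit. Hoxb1 was at least 55.1-fold higher in P, and its fitted log2 difference was 6.35 (SE 0.53, adjusted p = 3.63e-08). Its lowest log2 difference over 14 alternatives, which changed the processing or the arrays used, was 4.91, below this bound. The other Hoxb1 probe differed by 6.28 (SE 0.48).

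Hoxb2, which acts beside Hoxb1 in the hindbrain, was the sole member detected in A, at 6.67, 6.22 and 7.13, against 10.89 and 10.49 in P. The arrays of both regions were detected and did not overlap, and Hoxb2 rose by 4.09 (SE 0.21, adjusted p = 1.01e-11). Hoxb4, known from the hindbrain, the neck and blood stem cells, read 4.67, 4.58 and 4.69 in A and 6.51 and 7.41 in P. It was at least 1.87-fold higher in P, with a difference of 2.05 (SE 0.51, adjusted p = 0.0276). With an offset of 100 Hoxb4 differed by 0.79, below this bound. The call on Hoxb4 was lost under 5 of 14 alternatives, and without A replicate 1 (1.93, adjusted p = 0.125), A replicate 2 (1.87, adjusted p = 0.0900) or P replicate 2 (1.58, adjusted p = 0.254).

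Hoxb5 read 5.32, 4.87 and 5.63 in A and 7.45 and 8.39 in P. Hoxb7 read 4.85, 4.75 and 4.68 in A and 8.17 and 8.20 in P. Both were undetected in A and detected on both P arrays, without overlap. Hoxb5 was at least 3.63-fold higher in P (log2 difference 2.81, SE 0.30, adjusted p = 1.51e-06). Hoxb7 was at least 4.37-fold higher (3.37, SE 0.20, adjusted p = 1.87e-10). Its other probe, detected on 1 of the P arrays, was called as well (adjusted p = 6.44e-06). Hoxb1, Hoxb2, Hoxb5 and Hoxb7 kept their calls in all 14 alternatives and whichever of the 36 arrays was left out. With no background subtracted Hoxb5 and Hoxb7 differed by 1.67 and 1.94, and with an offset of 100 by 1.55 and 1.70. These values lay below their bounds. Batch 2 held both P arrays and A replicates 1 and 2, so most of this comparison lies within 1 batch.

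The other 5 genes were not called in P against A, and all were undetected in both regions. Hoxb3 read 6.31 and 5.35 in P, Hoxb6 4.84 and 5.06, and Hoxb9 4.90 and 4.63. With both regions below detection no fold is given for them.

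Signals and factors known to act upstream of Hoxb genes were higher in P for 7 of the 17 tested and lower for 1. Wnt3a, a signal of the streak, was at least 68.5-fold higher (7.09, SE 0.23) and the brighter probe of Cdx1, a caudal transcription factor, differed by 6.91 (SE 0.28). Paralogues of Hoxb genes in the other clusters were higher for 5 of the 18 tested, among them Hoxa5, at least 6.62-fold higher (3.98, SE 0.43). Of 6 genes that flank the Hoxb cluster, 1 was called, Snf8, lower in P at -0.69 (SE 0.19).

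Cell types differed between these regions as well. All 5 streak markers were higher in P, and their summed level was 2296, 2534 and 1480 on the A arrays and 15483 and 16604 on those of P, with T the most abundant. All 3 tested markers of paraxial mesoderm were higher too, summed at 297, 240 and 212 in A and at 4397 and 4410 in P, led by Tbx6 or Meox1. Of 4 markers of anterior neurectoderm, 3 were lower in P, with sums of 9052, 8360 and 4992 in A, led by Otx2, and of 2060 and 1521 in P. Shh among 6 node markers was lower in P, with sums of 3235, 3138 and 1795 in A and 1677 and 1208 in P. Nkx1-2 among 3 caudal neural markers was higher, with sums of 504, 723 and 127 in A, led by Sox2, and 2148 and 1609 in P. The part of these tissues in the Hoxb differences was not tested.

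PP against P compares the proximal posterior region with the posterior region. The sample labels do not say whether the P pools held the PP tissue. Of the 10 Hoxb genes, 2 were called, against 0.792% of all tested probes, and 6 had an unadjusted p under 0.05. Hoxb6, a gene of the thoracic region, read 4.84 and 5.06 in P and 7.56 and 7.70 in PP. It was undetected on both P arrays and detected on both PP arrays, at least 2.98-fold higher, with a difference of 2.74 (SE 0.42, adjusted p = 9.76e-04). Hoxb7 rose from 8.17 and 8.20 to 10.06 and 9.85 without overlap (1.94, SE 0.25, adjusted p = 1.01e-04). Hoxb6 lost its call where no background was subtracted (1.52, adjusted p = 0.0575), where the offset was 100 (1.33, adjusted p = 0.0748) and where batch means were removed before the fit (1.94, adjusted p = 0.0635), and Hoxb7 in the last of these (1.08, adjusted p = 0.334). At 1.52 and 1.33 Hoxb6 lay below its bound. No batch held arrays of both PP and P.

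Hoxb4 and Hoxb5 lay higher on every PP array than on either P array and were not called. Hoxb4 read 8.53 and 7.77 in PP, with an interval of the difference from 0.68 to 3.27. Hoxb5 read 9.46 and 9.67, with an interval from 0.40 to 1.90, and was called without E11.5 P-CNH replicate 1 (1.14, adjusted p = 0.0421) or replicate 2 (1.15, adjusted p = 0.0395), with no batch term (1.65, adjusted p = 0.0190) and without the 4 dimmest arrays (1.24, adjusted p = 0.0196). Hoxb9, another gene of the thoracic region, was detected on both PP arrays at 6.17 and 6.33 and on neither of P, at least 1.14-fold higher, with an interval from 0.10 to 2.57. Hoxb1 and Hoxb2 differed by 0.19 (SE 0.65) and -0.04 (SE 0.26), and the PP arrays of Hoxb1 read 11.82 and 12.82, its highest region mean.

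Among paralogues, 4 of 18 were called, all higher in PP. Hoxd4, undetected in P, was called, and Hoxd8 was at least 2.70-fold higher (2.57, SE 0.36). Cdx4, also undetected in P, was the sole upstream gene called. No fold is given for Hoxd4 and Cdx4. Of 5 markers of endoderm 1 was higher, Afp (at least 4.62-fold), and their sum was 5488 and 4701 in P and 27587 and 14038 in PP, with Ttr the most abundant in PP. Of 5 markers of lateral and posterior mesoderm 1 was higher, Hand1 (at least 3.48-fold), with sums of 1055 and 1339 in P and 3018 and 2526 in PP, led by Bmp4 in PP. Of 4 markers of anterior neurectoderm 2 were lower, with sums of 2060 and 1521 in P, led by Otx2, and of 204 and 199.6 in PP. Node and notochord markers, each uncalled, were summed at 1677 and 1208 in P, led by Chrd or Shh, and at 359.9 and 359 in PP, led by Chrd. Mixl1 of the streak was higher in PP and Meox1 of paraxial mesoderm lower. Whether these tissues had a part in the Hoxb values was not tested.

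The next day was compared with E7.5 in 3 ways. In CLE against P, 6 of the 10 Hoxb genes were called and all were higher in CLE, against 6.83% of all tested probes. Their median difference was 1.93 and that of all probes -0.04. Hoxb6 read 9.06, 9.33 and 10.38 in CLE, far above its P arrays, and was at least 11.6-fold higher (4.68, SE 0.36, adjusted p = 1.09e-08). Hoxb9 read 9.01, 8.02 and 9.54 in CLE and was at least 6.95-fold higher (3.99, SE 0.52, adjusted p = 2.55e-05). Hoxb7 read 12.00, 11.62 and 11.28 and rose by 3.56 (SE 0.21, adjusted p = 1.94e-10). In each of these genes all CLE arrays lay above both P arrays.

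Hoxb5 read 9.81, 10.61 and 10.23 in CLE and rose by 1.97 (SE 0.31, adjusted p = 2.77e-04), again without overlap. Hoxb5, Hoxb6, Hoxb7 and Hoxb9 kept these calls in all 14 alternatives and all 36 fits with 1 array left out. With no background subtracted Hoxb6 and Hoxb9 differed by 3.11 and 2.47, and with an offset of 100 by 2.92 and 2.22. These values lay below their bounds. Hoxb4 read 9.14, 7.54 and 8.32 and rose by 1.90 (SE 0.54, adjusted p = 0.0356). Its lowest CLE array, at 7.54, lay just above the higher P array, at 7.41. The call was lost under 7 of 14 alternatives, and without P replicate 1 (1.45, adjusted p = 0.243), CLE replicate 1 (1.66, adjusted p = 0.180) or E11.5 CNH replicate 3 (1.87, adjusted p = 0.0506).

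Hoxb3 was called as well and shows the limits of its probe. On the CLE arrays it read 7.96, 6.34 and 5.50, detected on the first alone, and in P 6.31 and 5.35. The arrays of the regions overlapped, and with a single detected array no fold is bounded. The fitted difference was 1.98 (SE 0.43, adjusted p = 0.00549). Without P replicate 2 it was 1.5 (adjusted p = 0.101), and the call was also lost with no batch term (0.77, adjusted p = 0.622), with the BeadChip as a block (0.96, adjusted p = 0.629) and without the 4 dimmest arrays (1.24, adjusted p = 0.245). Hoxb1 and Hoxb2, already high in P, were not called, with intervals from -1.95 to 0.37 and from 0.14 to 1.05. Hoxb2 was called with cyclic loess (0.70, adjusted p = 0.0332), with an offset of 100 (0.61, adjusted p = 0.0233) and where no background was subtracted (0.63, adjusted p = 0.0309). Hoxb8, undetected in P, was called without CLE replicate 2 (adjusted p = 0.0371). It was also called without the 4 dimmest arrays, which left CLE replicate 3 alone of that region. Its probe passed the filter only through arrays of NSB, St1 and CLE replicate 3, so these calls add no support.

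**Figure D3:**
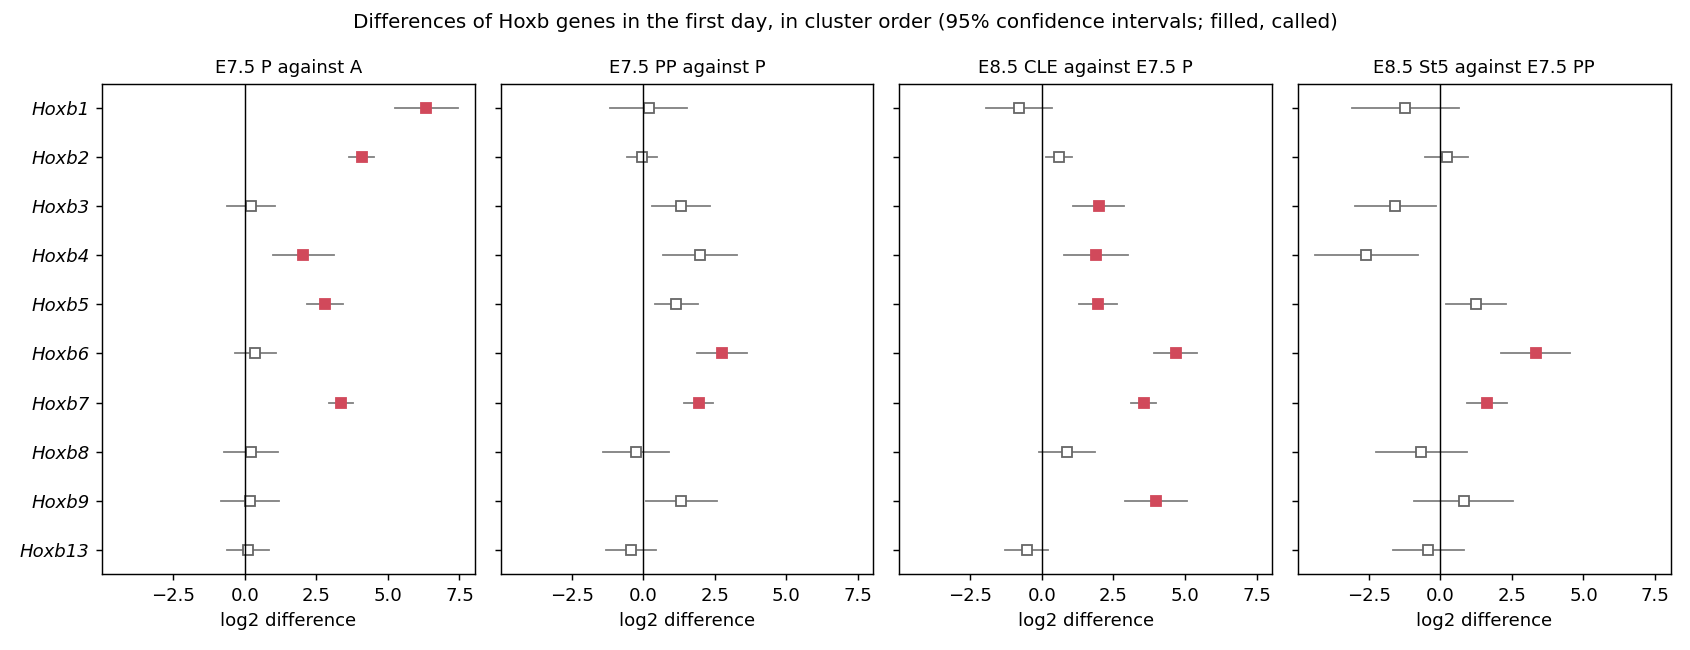
Fitted log2 differences of the 10 Hoxb genes in cluster order for P against A, PP against P, CLE against P and St5 against PP; squares are differences, filled where called, and lines are 95% confidence intervals. Hoxb1 and Hoxb2 stand out in the first panel, at 6.35 and 4.09, and Hoxb6 in the CLE panel, at 4.68.

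NSB against P gave 4 called genes, all higher in NSB, against 3.07% of all tested probes. Hoxb5 read 10.40, 10.41 and 10.49 in NSB and rose by 2.07 (SE 0.43, adjusted p = 0.00723). Hoxb6 read 8.33, 8.62 and 8.75 and was at least 5.69-fold higher (3.86, SE 0.49, adjusted p = 2.91e-05). With no background subtracted Hoxb6 differed by 2.37 and with an offset of 100 by 2.19, below this bound. Hoxb7 read 11.00, 10.85 and 10.97 and rose by 2.96 (SE 0.29, adjusted p = 1.16e-06). In all 3 genes the NSB arrays were close together across batches 1 and 3 and lay above both P arrays. Without P replicate 1 the call on Hoxb5 was lost (adjusted p = 0.0583).

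Hoxb9 read 9.64, 9.70 and 7.91 in NSB, the lowest on replicate 3, and was called higher than in P (2.99, SE 0.70, adjusted p = 0.0178). No bound is given, since the arrays of batch 1 would carry it. It lost its call without P replicate 2 (adjusted p = 0.0673), with cyclic loess (2.92, adjusted p = 0.184), with an offset of 100 (1.39, adjusted p = 0.237) and where no background was subtracted (1.65, adjusted p = 0.130). Hoxb4 read 10.78, 10.26 and 6.65 in NSB, so that 2 arrays lay far above P and replicate 3 within its range. It was not called (0.47, interval from -1.06 to 1.99). Replicate 3 is the array that ties NSB to P through the batches, and without it the comparison could not be estimated.

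Cell types differed between P and NSB. Node and notochord markers were higher in NSB for 3 of 6, with sums of 1677 and 1208 in P, led by Chrd or Shh, and of 5766, 6501 and 5179 in NSB, led by Shh. Of 4 blood markers 1 was higher, Hbb-bh1, and their sums were 178 and 137 in P and 287, 466 and 591 in NSB. Of 5 endoderm markers 1 was lower, with sums of 5488 and 4701 in P, led by Apoa1, and of 1456, 1008 and 1659.9 in NSB, led by Sox17. Of 3 endothelial markers 1 was lower, Flt1, with sums of 375 and 326 in P and 177, 224 and 72.3 in NSB. Olig3 among 3 caudal neural markers was higher, and Isl1 of lateral mesoderm and Otx2 of anterior neurectoderm were lower. The part of these tissues in the Hoxb differences was not tested.

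St5 against PP sets the posterior end of the streak beside the proximal region of the day before. Of the 10 Hoxb genes 2 were called, both higher in St5, against 1.03% of all tested probes. Hoxb6 read 10.72 and 10.66 in St5 and rose by 3.33 (SE 0.58, adjusted p = 0.00406). Hoxb7 read 11.61 and 11.47 and rose by 1.63 (SE 0.34, adjusted p = 0.0192). Neither overlapped PP, and both calls were lost with cyclic loess (3.25, adjusted p = 0.0512, and 1.56, adjusted p = 0.182), that on Hoxb7 also with batch means removed (1.22, adjusted p = 0.103). Hoxb7 further lost its call without PP replicate 2 (1.55, adjusted p = 0.0605), NSB replicate 1 (1.71, adjusted p = 0.0550) or replicate 2 (1.56, adjusted p = 0.0837), or St5 replicate 1 (1.56, adjusted p = 0.0823) or replicate 2 (1.70, adjusted p = 0.0562). The regions lie in batches 1 and 3, tied by NSB replicate 3. Hoxb4 read 9.46 and 9.42 in St5, above PP, while its fitted difference was -2.58 (interval from -4.38 to -0.78) and was not called. The Hoxb3 probe with the highest mean read 7.09 and 6.95 in St5, detected, and 5.49 and 5.18 in PP, undetected, while its fitted difference was -1.56 (SE 0.69), uncalled. The probe ILMN_3150064 was instead detected on PP replicate 2 and on neither St5 array, with means of 5.71 in PP and 5.02 in St5. The fitted differences of Hoxb4 and of the first Hoxb3 probe thus ran opposite to the arrays. That of Hoxb2 did so too, at 0.22 (SE 0.36), with region means of 10.26 in St5 and 10.88 in PP. Without NSB replicate 3, which read low for Hoxb3 and Hoxb4, this comparison could not be estimated. Hoxb9 was called with no batch term (2.59, adjusted p = 0.0150) and with the BeadChip as a block (2.71, adjusted p = 0.0123), and Hoxb1 with batch means removed (-2.11, adjusted p = 0.0429). Without the 4 dimmest arrays Hoxb5 (1.24, adjusted p = 0.0321) was called, and so was Hoxb4 (-2.58, adjusted p = 0.00672), still opposite to its arrays. Tbx4 among 5 markers of lateral and posterior mesoderm was higher in St5, with sums of 3018 and 2526 in PP and 8422 and 10406 in St5, and its part was not tested.

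Genes of the other Hox clusters were also compared over this day. Of 18 paralogues, 7 were called in CLE against P, all higher. Hoxa7 was at least 55.8-fold higher (6.98, SE 0.34) and Hoxc6 at least 31.1-fold (6.17, SE 0.33). In NSB 6 were higher than in P, and in St5 4 were higher than in PP. Of 17 upstream genes, 3 were higher and 2 lower in CLE than in P, with Aldh1a2, which makes retinoic acid, at -4.33 (SE 0.44) and Cdx4 at least 13-fold higher (3.95, SE 0.47). Hox cofactors, the Pbx, Meis and Pknox proteins that bind DNA with Hox proteins, gave 1 higher and 2 lower of 9, led by Pbx3 at -2.29 (SE 0.55) and Pbx4, detected on 1 CLE array and no P array (adjusted p = 0.00559).

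Tissue markers differed between CLE and P too. Of 5 endoderm markers 4 were lower in CLE, summed at 152, 361 and 192 there and at 5488 and 4701 in P, led by Apoa1. Node and notochord markers were lower for 3 of 6, with sums of 1677 and 1208 in P and of 345, 550 and 380 in CLE, led there by Chrd or Nog. Streak markers were higher for 2 of 5, Fgf8 and Evx1, and their sums were 15483 and 16604 in P, led by T, and 13510, 25339 and 26167 in CLE, led by Wnt3a. Meox1 among 3 paraxial mesoderm markers was lower, with sums of 4397 and 4410 in P and 1163, 1942 and 1899.5 in CLE. Isl1 among 5 markers of lateral mesoderm was lower, with sums of 1055 and 1339 in P and 534, 1588 and 1659.8 in CLE, led there by Bmp4. Otx2 among 4 markers of anterior neurectoderm was lower, with sums of 2060 and 1521 in P and 1008, 294 and 206 in CLE, led there by Pou3f1. Flt1 among 3 endothelial markers was lower, with sums of 375 and 326 in P and 82.1, 77.6 and 85.2 in CLE. Whether these tissues had a part in the Hoxb differences was not tested.

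Within E8.5, regions were compared along the streak and across it. RN against NSB and St1 against NSB each gave 0 called Hoxb genes in limma over all arrays, against 0.134% and 1.42% of all tested probes. At unadjusted p under 0.05 the counts were 0 and 1. Both comparisons lie within batch 1 apart from NSB replicate 3. In a fit to the 12 arrays of batch 1, with 9 Hoxb genes and 18900 probes tested, RN against NSB gave Hoxb8 alone (2.26% of probes) and St1 against NSB Hoxb6 alone (5.17%). Each replicate number of batch 1 is 1 BeadChip, and a fit with these as a block was chosen after the data were seen. It gave 2 Hoxb genes in RN against NSB (2.63%), Hoxb6 and Hoxb8, and Hoxb6 alone in St1 against NSB (5.57%).

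In RN against NSB, Hoxb8 read 5.30 and 5.17 in RN, undetected, and 5.85 and 5.88 on the NSB arrays of that batch, detected on both, which bounds it at least 1.23-fold lower in RN, under the limit of 1.5 (adjusted p = 0.00536). The probe entered the batch 1 test only through arrays of NSB and St1, where it was high, so its call adds no support. Hoxb6 read 7.61 and 7.91 in RN, below both of these NSB arrays. With the BeadChips as a block Hoxb6 was called (-0.68, SE 0.13, adjusted p = 0.0233). Hoxb4 (-0.48, SE 0.16, adjusted p = 0.199) and Hoxb9 (-0.64, SE 0.17, adjusted p = 0.0914) were not. Hoxb9 read 8.95 and 9.11 in RN, below 9.64 and 9.70 on these NSB arrays. In that block fit 6 of the 9 Hoxb genes had an unadjusted p under 0.05, and the count of all probes at that limit was not taken. Tissue markers also differed, over all arrays. Streak markers were lower in RN than in NSB for 4 of 5, with sums of 6756 and 8602 in RN, led by T, and of 20243, 23741 and 23602 in NSB, led by Wnt3a or T. Tbx6 among 3 paraxial mesoderm markers was lower, and these were summed at 2348 and 1402 in RN and 3957, 3033 and 3027 in NSB. Olig3 among 3 caudal neural markers was higher, with sums of 2066 and 2798 in RN and 2059, 2511 and 1568 in NSB, led by Nkx1-2. Blood markers, each uncalled, were summed at 3198 and 1711 in RN and 287, 466 and 591 in NSB, led by Hbb-bh1. Of 17 upstream genes 2 were lower, Wnt3a (-2.80, SE 0.25) and Fgf8 (-1.95, SE 0.37). The part of these tissues in the Hoxb values of RN was not tested.

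In St1 against NSB Hoxb6 was called in both fits to batch 1, at 9.31 and 9.38 in St1 against 8.33 and 8.62 (0.84, SE 0.16, adjusted p = 0.00893). Over all arrays Hoxb6 differed by 0.87 (SE 0.37), uncalled, and was called without the 4 dimmest arrays (0.86, adjusted p = 0.0213). Node and notochord markers were lower in St1 than in NSB for 5 of 6, with sums of 707 and 787 in St1, led by Chrd, and of 5766, 6501 and 5179 in NSB, led by Shh. Olig3 was lower as well. Their part in the Hoxb values was not tested.

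St5 against St1 compares the ends of the streak. Over all arrays 1 of the 10 Hoxb genes was called, against 3.27% of all tested probes. Hoxb6 read 9.31 and 9.38 in St1 and 10.72 and 10.66 in St5, without overlap, and rose by 1.34 (SE 0.37, adjusted p = 0.0449). The call was lost under 4 of its alternatives, and kept in 10 of the 36 fits with 1 array left out, those without NSB replicate 3, a CLE array, E11.5 CNH replicate 1 or 2, an E11.5 P-CNH array or an E13.5 CNH array. Without any other array it was lost, with values from 1.31 to 1.38 and an adjusted p of up to 0.296. Within batch 1 alone, which held all 4 arrays, 4 Hoxb genes were called beside Hoxb8, against 14.5% of probes. With its BeadChips as a block Hoxb3 was called as well (15.0% of probes). Hoxb6 differed in the first of these fits by 1.35 (SE 0.16, adjusted p = 1.19e-04).

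The other genes called within batch 1 had lower values in St5. Hoxb1 read 11.40 and 11.73 in St1 and 10.73 and 10.56 in St5 (-0.95, SE 0.17). Hoxb2 read 11.01 on both St1 arrays and 10.34 and 10.18 in St5 (-0.76, SE 0.11). Hoxb9 read 9.87 and 9.82 in St1 and 8.83 and 8.84 in St5 (-1.0, SE 0.17). The Hoxb3 probe with the highest mean read 7.95 and 7.78 in St1 and 7.09 and 6.95 in St5, called only with the BeadChips as a block (-0.80, SE 0.19, adjusted p = 0.0134). No array of these genes overlapped between the regions. Hoxb8 read 6.01 and 6.11 in St1, detected, and 5.31 and 5.32 in St5, undetected, which bounds it at least 1.31-fold lower, again under the limit of 1.5. It entered the test only through NSB and St1 arrays, so its call adds no support. St5 thus held more Hoxb6 and less Hoxb1, Hoxb2 and Hoxb9 transcript than St1 in the fit to batch 1. Over all arrays the differences were -0.92 (SE 0.57) for Hoxb1, -0.75 (SE 0.23) for Hoxb2 and -1.01 for Hoxb9, each uncalled. Hoxb2 was called without A replicate 2 or either E13.5 CNH array (adjusted p from 0.0459 to 0.0495), with cyclic loess (-0.76, adjusted p = 0.0140), with an offset of 100 (-0.71, adjusted p = 0.0117) and where no background was subtracted (-0.73, adjusted p = 0.0200). Without the 4 dimmest arrays Hoxb2 (-0.74, adjusted p = 0.0237) and Hoxb9 (-1.0, adjusted p = 0.0165) were called.

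Paralogues in St5 against St1 over all arrays were called for 7 of 18, all higher, with Hoxd9 at 4.84 (SE 0.56) and Hoxd8 at 4.24 (SE 0.32). Upstream genes were lower for 4 of 17, led by Wnt8a at -3.50 (SE 0.31) and Aldh1a2, at least 4.51-fold lower (-2.54, SE 0.45). All 5 markers of lateral and posterior mesoderm were higher, with sums of 590 and 563 in St1, led by Bmp4, and of 8422 and 10406 in St5, led by Tbx4. Of 3 endothelial markers 2 were higher, with sums of 179 and 170 in St1 and 684 and 805 in St5, where Flt1 was the most abundant. Paraxial mesoderm markers were lower for 2 of 3, with sums of 4537 and 4467 in St1 and 2013 and 2147 in St5, led by Tbx6. Nkx1-2 among 3 caudal neural markers was lower, with sums of 2291 and 2644 in St1 and 578 and 488 in St5. Pou3f1 among 4 markers of anterior neurectoderm was lower, with sums of 239 and 196 in St1 and 132 and 127 in St5, and Mixl1 of the streak was higher. Whether these tissues had a part in the Hoxb differences was not tested.

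CLE against NSB gave 0 called Hoxb genes in limma, against 2.40% of all tested probes, and 4 at an unadjusted p under 0.05. The CLE arrays of Hoxb7 read 12.00, 11.62 and 11.28, all above the 3 NSB arrays, and the interval ran from 0.08 to 1.13. Hoxb7 was called with the BeadChip as a block (0.73, adjusted p = 0.0120), with no batch term (0.69, adjusted p = 0.0376) and with batch means removed (1.17, adjusted p = 0.0429), the last of which also called Hoxb6 (1.47, adjusted p = 0.0319). Over all arrays the interval of Hoxb6 ran from -0.07 to 1.72 and that of Hoxb5 from -0.88 to 0.67. A fit without the 4 arrays with the fewest detected probes, among them CLE replicates 1 and 2, was added after the data were seen. It called Hoxb4 (1.68), Hoxb6 (1.62), Hoxb8 and Hoxb9 (1.62), all higher in CLE, of which replicate 3 alone was then left. Hoxb8 was also called without CLE replicate 2 alone (adjusted p = 0.0228). It was detected on CLE replicate 3 alone of that region and not on NSB replicate 3, so no fold is given. Its probe passed the filter only through arrays of NSB, St1 and CLE replicate 3, so its calls add no support. Node and notochord markers were lower in CLE for 4 of 6, with sums of 5766, 6501 and 5179 in NSB, led by Shh, and of 345, 550 and 380 in CLE. Endoderm markers were lower for 3 of 5, summed at 1456, 1008 and 1659.9 in NSB and at 152, 361 and 192 in CLE, and Meox1 and Hbb-bh1 were lower. The part of these tissues in the Hoxb values was not tested.

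The step from the streak to the tail bud was followed from NSB and CLE to E9.5 CNH and from NSB to E10.5 CNH. E9.5 CNH against NSB gave 0 called Hoxb genes in limma, with 4 at an unadjusted p under 0.05, against 5.04% of all tested probes called. Hoxb7 read 12.00 and 11.90 in E9.5 CNH, above every NSB array (0.81, SE 0.29, adjusted p = 0.123). It was called with the BeadChip as a block (1.10, adjusted p = 0.00375), with no batch term (1.01, adjusted p = 0.00234) and with batch means removed (1.95, adjusted p = 7.19e-04). The same held in fits chosen after the data were seen, without the 4 dimmest arrays (0.84, adjusted p = 0.00713) and with an adjustment for how many probes were detected (0.91, adjusted p = 0.0214). Hoxb2 was called lower where no background was subtracted (-0.89, adjusted p = 0.0298), with an offset of 100 (-0.86, adjusted p = 0.0207) and with cyclic loess (-1.0, adjusted p = 0.0232). Hoxb3 and Hoxb4 had fitted differences of 1.80 (SE 0.58) and 1.73 (SE 0.73), uncalled. NSB replicate 3 read lowest for both, and the comparison could not be estimated without it. Hoxb3 was called without E13.5 CNH replicate 1 (1.96, adjusted p = 0.0373) or replicate 2 (1.97, adjusted p = 0.0374), with the replicate block (1.97, adjusted p = 0.0458), with the mean of its probes (1.09, adjusted p = 0.0164) and without the 4 dimmest arrays (2.13, adjusted p = 0.0135), as was Hoxb4 in the last of these (2.25, adjusted p = 0.00327), and Hoxb13, undetected in both regions (adjusted p = 0.0328). Batch means removed called Hoxb6 (1.62, adjusted p = 0.0221). Hoxb4 read 9.16 and 9.15 in E9.5 CNH, below 2 of the 3 NSB arrays. Hoxb5 lay below all NSB arrays, with a mean of 10.01 against 10.43, and its fitted difference was 0.02 (SE 0.43).

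In E9.5 CNH against CLE, 1 of the 10 Hoxb genes was called, against 8.89% of all tested probes. Hoxb2 read from 11.24 to 11.57 on the 3 CLE arrays and 10.65 and 10.49 in E9.5 CNH, without overlap, and fell by 0.71 on the log2 scale (SE 0.22, adjusted p = 0.0464). The CLE array of the same batch as E9.5 CNH was the lowest of these, at 11.24. The call was lost under 5 of its alternatives, and kept in 12 of the 36 fits with 1 array left out, those without A replicate 2 or 3, a P array, PP replicate 2, NSB replicate 3, E11.5 CNH replicate 1 or 2, an E11.5 P-CNH array or an E13.5 CNH array. Without any other array it was lost, over a range from -0.79 to -0.63 and with an adjusted p of up to 0.288. Intervals for Hoxb5, Hoxb6 and Hoxb9 ran from -0.52 to 0.78, from -1.14 to 0.36 and from -1.54 to 0.60. Hoxb13, undetected in both regions, was called without either E13.5 CNH array (adjusted p = 0.0359). Without the 4 dimmest arrays, which left CLE replicate 3 alone of that region, Hoxb2 lost its call (-0.66) and Hoxb6 differed by -1.21. Hoxb8 was undetected in E9.5 CNH. Its probe passed the filter only through arrays of NSB, St1 and CLE replicate 3, so its call in that fit adds no support.

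E10.5 CNH against NSB gave 0 called Hoxb genes in limma over all arrays, with 2 at an unadjusted p under 0.05, against 7.14% of all tested probes called. Within batch 1, 2 Hoxb genes were called beside Hoxb8, against 22.7% of probes, and the same 3 with its BeadChips as a block (23.2%). Hoxb8 entered that test only through arrays of NSB and St1, so its call adds no support. Hoxb7 read 11.51 and 11.53 in E10.5 CNH and 11.00 and 10.85 on the NSB arrays of batch 1, and was higher by 0.61 (SE 0.14, adjusted p = 0.00486). Hoxb5 read 9.82 and 9.73 against 10.40 and 10.41, a difference of -0.63 (SE 0.12, adjusted p = 0.00250). Hoxb8 read 5.14 and 5.13, undetected, against 5.85 and 5.88, which bounds it at least 1.19-fold lower, under the limit of 1.5 (adjusted p = 1.17e-04). For all 3 genes the arrays of batch 1 did not overlap. Over all arrays Hoxb7 was called with the BeadChip as a block (0.61, adjusted p = 0.0205), with the mean of its probes (0.59, adjusted p = 0.0347), without the 4 dimmest arrays (0.59, adjusted p = 0.00729) and with the adjustment for how many probes were detected (0.63, adjusted p = 0.0263). Hoxb2 was called with the BeadChip as a block (-0.69, adjusted p = 0.0438) and Hoxb8 without the 4 dimmest arrays (adjusted p = 0.0449). That call on Hoxb8 adds no support either, since over all arrays its probe passed the filter only through NSB, St1 and CLE.

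Paralogues were compared over the same step. In E10.5 CNH against NSB 11 of 18 were higher and 1 lower, led by Hoxc13, at least 23.9-fold higher (5.77, SE 0.31), and Hoxd8 at 5.17 (SE 0.32). Upstream genes in E10.5 CNH against NSB were higher for 3 of 17 and lower for 4, with Wnt8a at least 46.1-fold lower (-6.08, SE 0.31) and Cdx1 at -5.43 (SE 0.30). Blood markers were higher there for 3 of 4, with sums of 287, 466 and 591 in NSB and of 22191 and 22229 in E10.5 CNH, led by Hbb-y. Caudal neural markers were lower for 2 of 3, summed at 2059, 2511 and 1568 in NSB and at 877 and 709.9 in E10.5 CNH, led by Nkx1-2. Endoderm markers were lower for 2 of 5, summed at 1456, 1008 and 1659.9 and at 247 and 339, led by Sox17. Anterior neurectoderm markers were lower for 2 of 4, summed at 324, 279 and 321 and at 99.9 and 110.4, led by Pou3f1. Cdh5 among 3 endothelial markers was higher, with sums of 177, 224 and 72.3 in NSB and 315 and 406 in E10.5 CNH, led there by Flt1. Fgf8 of the streak was higher and Tbx4 of lateral mesoderm lower. Whether these tissues had a part in the Hoxb values was not tested.

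In E9.5 CNH 7 paralogues were called against NSB, all higher, and against CLE 9 were higher and 1 lower. Against NSB 3 of 4 blood markers were higher in E9.5 CNH, 2 of 4 markers of anterior neurectoderm were lower, and Meox1, Olig3 and Sox17 were lower. Upstream genes against CLE numbered 1 higher and 4 lower of 17, with Wnt8a at least 34.7-fold lower (-5.54, SE 0.31) and Cdx1 at -5.26 (SE 0.29). Meis2, a Hox cofactor, was lower in E9.5 CNH than in CLE (-2.25, SE 0.42). All 4 blood markers were higher in E9.5 CNH than in CLE, with sums of 202, 102 and 100 in CLE and of 26872 and 27259 in E9.5 CNH, led by Hbb-y. For node and notochord 4 of 6 markers were higher, with sums of 345, 550 and 380 in CLE and of 2434 and 2657 in E9.5 CNH, led there by Shh. Of 3 tested markers of caudal and differentiating neural tissue 1 was lower, Olig3, detected on 2 CLE arrays and no E9.5 CNH array, with sums of 2116, 1377 and 2690 in CLE and of 1131 and 1313 in E9.5 CNH, led by Nkx1-2. Against CLE Pou3f1 of anterior neurectoderm was also lower, and Ctsh of endoderm and 1 of 4 surface ectoderm markers were higher. Their part in the Hoxb values was not tested.

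From E9.5 to E12.5 no Hoxb gene was called between neighbouring days. In limma 0 were called in E10.5 against E9.5 CNH (0.0737% of all tested probes), 0 in E11.5 against E10.5 CNH (0.0829%) and 0 in E12.5 against E11.5 CNH (0.226%). At unadjusted p under 0.05 the counts were 2, 3 and 2. The first pair of comparisons crosses from batch 1 to the others, and the largest SE of a Hoxb gene was 0.95 and 0.89 in them. Hoxb4 read 9.16 and 9.15 at E9.5 and 10.00 and 9.93 at E10.5, while its fitted difference was -2.28 (interval from -4.18 to -0.37), opposite to the arrays, and was called without the 4 dimmest arrays (-2.80, adjusted p = 0.0163). Its fitted difference from E10.5 to E11.5 was 1.72 (interval from -0.07 to 3.51), again opposite to the arrays. Hoxb9 read 8.20 and 8.37 at E9.5, 9.60 and 9.72 at E10.5 and 8.66, 8.45 and 8.68 at E11.5, while its fitted differences were -0.53 (SE 0.88) and 0.80 (SE 0.83). Hoxb2, with means of 10.57, 10.29 and 10.62 on these days, had fitted differences of 0.33 (SE 0.38) and -0.36 (SE 0.35). For these 3 genes the arrays of neighbouring days did not overlap, the fitted values ran the other way, and none was called. With batch means removed Hoxb6 was called from E9.5 to E10.5 (-1.92, adjusted p = 0.0474) and Hoxb5 from E10.5 to E11.5 (1.72, adjusted p = 0.0394). At E11.5 Hoxb4 read 8.43, 8.86 and 7.73 and at E12.5 8.79 and 9.17, and the interval from E11.5 to E12.5 ran from -0.28 to 1.82.

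Hoxb7 held a narrow range over these days, from 11.51 at E10.5 to 12.32 at E12.5. Its interval from E11.5 to E12.5 ran from -0.24 to 0.59. Hoxb5 read 10.40, 10.53 and 10.79 at E11.5 and 10.52 and 10.89 at E12.5, with an interval from -0.56 to 0.66. Hoxb6 read 8.98, 9.62 and 9.37 at E11.5 and 9.28 and 9.33 at E12.5, with overlapping arrays. Hoxb1 read 10.86, 11.38 and 11.79 at E11.5 and 10.31 and 10.84 at E12.5, all E12.5 arrays below those of E11.5, with an interval from -1.90 to 0.27.

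CNH against P-CNH compares the hinge, which holds progenitors of notochord, spinal cord and mesoderm, with the tissue behind it. In limma 0 Hoxb genes were called at E9.5 (0.170% of all tested probes), 0 at E10.5 (0.318%) and 0 at E11.5 (0.161%), and 0, 0 and 1 had an unadjusted p under 0.05. Within batch 1 the E10.5 regions gave 0 of 9 as well in limma, with 2 at an unadjusted p under 0.05 and 2.96% of probes called. With the BeadChips as a block these counts were unchanged (3.22%). The count of all probes at an unadjusted p under 0.05 was not taken in these fits. Hoxb7 read 12.00 and 11.90 in E9.5 CNH and 12.06 and 11.72 in P-CNH, with an interval from -0.49 to 0.45. At E10.5 its interval ran from -0.80 to 0.10 and at E11.5 from -0.46 to 0.42. Hoxb1 had wider intervals, from -1.58 to 0.86 at E9.5 and from -0.52 to 1.80 at E11.5, where P-CNH read 9.90 and 11.88.

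The gene with an unadjusted p under 0.05 at E11.5 was Hoxb3. Its probe with the highest mean read 8.38, 8.81 and 6.65 in CNH, detected on all 3 arrays, and 5.97 and 5.43 in P-CNH, detected on neither. The fitted difference was 1.03 (SE 0.43, adjusted p = 0.873), uncalled. The other 3 probes were each detected on 1 P-CNH array. ILMN_2450689 ran the other way, with means of 4.98 in CNH and 6.30 in P-CNH and a fitted difference of -0.72 (SE 0.34), uncalled. In batch 3, which held both P-CNH arrays, the CNH array read 6.65. Node and notochord markers separated these regions at all 3 stages, with 2 of 6 higher in CNH at E9.5, 3 at E10.5 and 1 at E11.5. At E10.5 their sums were 4259 and 3174 in CNH, led by Shh, and 500 and 518 in P-CNH, and Sox17 of endoderm was higher in CNH.

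E13.5 CNH, at the end of axis elongation, was compared with the day before and with E9.5. Against E12.5 CNH 4 of the 10 Hoxb genes were called, all with a fitted value below 0, against 9.33% of all tested probes. Hoxb13 is among them, and its probe passed the filter only through E11.5 and E12.5 arrays, so its call adds no support. Hoxb1 read 10.31 and 10.84 at E12.5 and 9.30 and 7.71 at E13.5. Hoxb4 read 8.79 and 9.17 at E12.5 and 7.36 and 4.70 at E13.5, undetected on the last. Both genes were lower on each E13.5 array than on either E12.5 array, and lowest on replicate 2.

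Hoxb1 fell by 2.07 on the log2 scale (SE 0.57, adjusted p = 0.0279) and Hoxb4 by 2.95 (SE 0.55, adjusted p = 0.00247). With the undetected array of Hoxb4 at its floor, its means differed by -1.70. The Hoxb3 probe with the highest mean read 8.59 and 7.24 at E12.5 and 7.55 and 4.85 at E13.5, undetected on the last and with overlapping arrays. Its fitted difference was -1.72 (SE 0.44, adjusted p = 0.0196), and that of the means -0.54 with the undetected array at its floor. The other Hoxb3 probes did not all share this. ILMN_3150064 had means of 7.08 at E12.5 and 7.04 at E13.5, with replicate 1 at 7.73 above both E12.5 arrays (-0.04, SE 0.63), and ILMN_2450689 had means of 5.14 and 5.34, both uncalled. ILMN_1232276 was called (adjusted p = 0.0169) and was undetected at E13.5, with no bound. Hoxb13, which limits tail growth, read 6.14 and 6.48 at E12.5, detected, and 5.62 and 4.6 at E13.5, undetected. It was called at an adjusted p of 0.0478. The lowest levels of detected probes on the E13.5 arrays, 6.10 and 7.19, average above its E12.5 mean of 6.31, so no fall of Hoxb13 can be bounded. Its probe passed the filter only through E11.5 and E12.5 arrays, and with no filter the call was lost (adjusted p = 0.0526).

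These late calls depended on single arrays and on the processing. E13.5 CNH replicate 2 had the fewest detected probes of all arrays (10814, against 13979 on replicate 1 and 15030 and 16011 at E12.5), and without it all 4 calls were lost. Hoxb1 then differed by -0.98 (adjusted p = 0.468), Hoxb3 by -1.21 (adjusted p = 0.254), and Hoxb4 by -1.86 (adjusted p = 0.0955), with an adjusted p of 0.644 for Hoxb13. All 4 were also lost without E12.5 CNH replicate 2, at -1.93 (adjusted p = 0.275), -1.44 (adjusted p = 0.278) and -2.27 (adjusted p = 0.128) for the first 3 in the same order and an adjusted p of 0.328 for Hoxb13. With no batch term all 4 were lost as well, with the same differences and adjusted p-values of 0.0505, 0.324 and 0.0730 for the first 3 and 0.0931 for Hoxb13. Without E12.5 CNH replicate 1 Hoxb1 was not called (-2.21, adjusted p = 0.0665), and without E13.5 CNH replicate 1 it differed by -3.17 (adjusted p = 0.00103). Hoxb13 was called in 9 of the 36 fits with 1 array left out, those without NSB replicate 3, a CLE array, E11.5 CNH replicate 2 or 3, an E11.5 P-CNH array or E13.5 CNH replicate 1. Hoxb9 was called in 6 such fits, without CLE replicate 2 or 3, an E11.5 P-CNH array, E12.5 CNH replicate 1 or E13.5 CNH replicate 1, at -2.29 to -1.58, and with the BeadChip as a block (-1.59, adjusted p = 0.0225). Within batch 2 alone, Hoxb1 went from 10.31 to 9.30 and Hoxb4 from 8.79 to 7.36, and within batch 3 from 10.84 to 7.71 and from 9.17 to 4.70. Fits that bear on array depth were chosen after the data were seen. With an adjustment for how many probes were detected, Hoxb1 (-0.77, adjusted p = 0.391) and Hoxb13 (adjusted p = 0.461) lost their calls, and Hoxb3 and Hoxb4 kept theirs. Without the 4 arrays with the fewest detected probes, replicate 1 alone was left of E13.5 CNH. Hoxb1 (-1.06), Hoxb3 (-1.16) and Hoxb13 then lost their calls, while Hoxb4 was called at -1.75 and Hoxb9 became called (-1.14).

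Other genes moved over the same day. Of 18 paralogues 8 were called in E13.5 against E12.5 CNH, all lower, among them Hoxa7 at -1.56 (SE 0.34) and Hoxc6 at -1.31 (SE 0.33). Of 17 upstream genes 4 were lower and 1 higher, with Rarg, a receptor of retinoic acid, at 1.63 (SE 0.36) and Cyp26a1, which degrades retinoic acid, at -1.29 (SE 0.35). Of 3 endothelial markers 2 were higher, with sums of 216 and 128 at E12.5, led by Cdh5, and of 676 and 512 at E13.5, led by Cdh5 or Pecam1. Bmp4, 1 of 5 markers of lateral and posterior mesoderm, was higher, and those markers were summed at 692 and 549 at E12.5 and 3586 and 1662 at E13.5. Single markers of blood (Alas2) were higher, and of node (Noto), streak (Wnt3a) and paraxial mesoderm (Dll1) lower. The part of these tissues in the Hoxb values was not tested.

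Against E9.5 CNH 2 of the 10 Hoxb genes were called, both lower at E13.5, against 23.0% of all tested probes. Hoxb1 read 11.47 and 11.64 at E9.5 and fell by 3.20 on the log2 scale (SE 0.59, adjusted p = 5.10e-04). Hoxb4 read 9.16 and 9.15 and fell by 2.73 (SE 0.57, adjusted p = 0.00158). Hoxb4 was detected on 1 of the 2 E13.5 arrays, and with the other at its floor of 7.19 its means differed by -1.88. Neither gene overlapped E13.5, and both were called without replicate 2 of E13.5, at -2.26 (adjusted p = 0.0132) and -1.80 (adjusted p = 0.0369). Hoxb1 kept its call in all 14 alternatives, and Hoxb4 lost it with the BeadChip as a block (-2.63, adjusted p = 0.0564). The median of all tested probes was -0.12 in this comparison and 0.12 with cyclic loess.

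**Figure D4:**
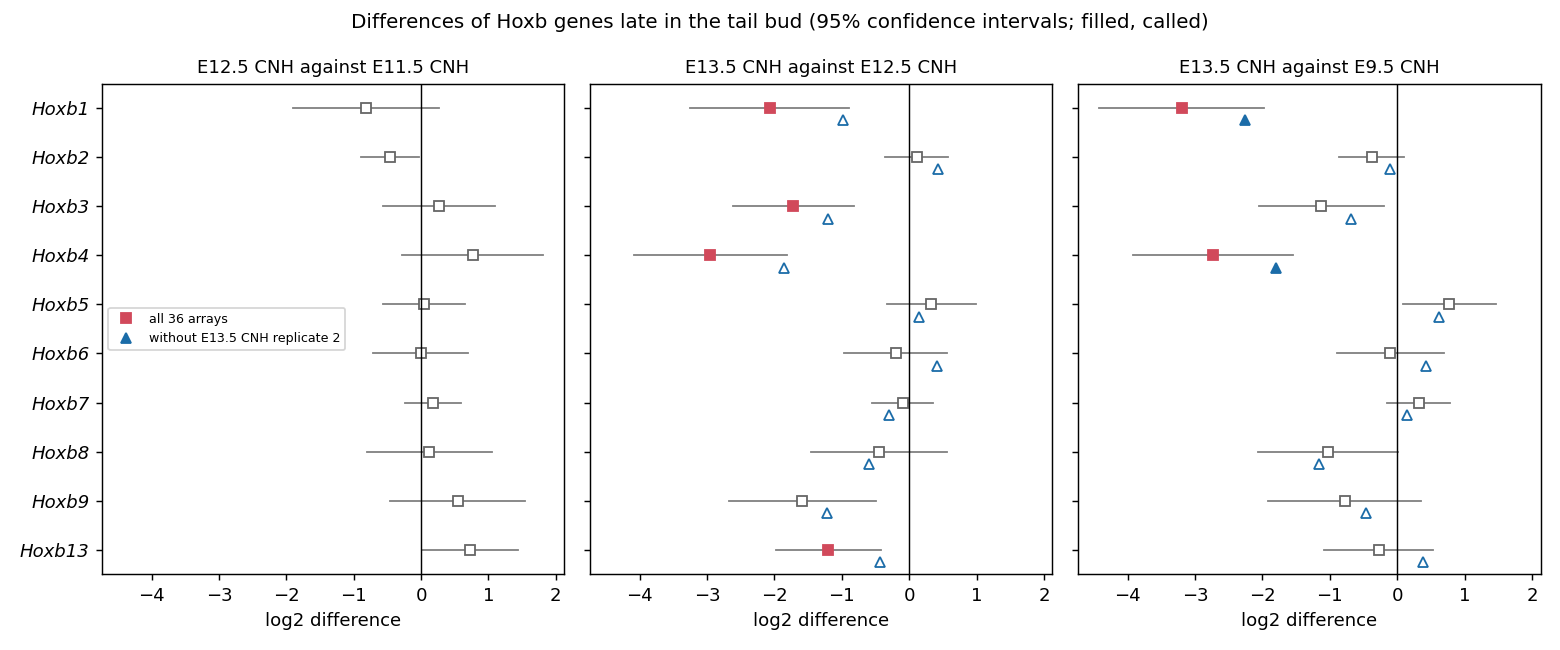
Fitted log2 differences of the 10 Hoxb genes for E12.5 against E11.5 CNH, E13.5 against E12.5 CNH and E13.5 against E9.5 CNH; squares are from all 36 arrays with 95% confidence intervals, triangles from the fit without E13.5 CNH replicate 2, and filled symbols are called. Hoxb1 and Hoxb4 lay lowest against E9.5, at -3.20 and -2.73, while Hoxb5 and Hoxb7 lay near 0 or above.

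The other 8 members were not called against E9.5. Hoxb5 read 10.63 and 11.44, its highest region mean, with an interval against E9.5 from 0.09 to 1.46. Hoxb7 read 12.10 and 12.27, with an interval from -0.15 to 0.78. Hoxb2 read 10.46 and 10.16, with an interval from -0.86 to 0.11. Hoxb6 read 9.67 and 8.55, above and below its E9.5 arrays at 9.29 and 9.19, and Hoxb9 read 7.82 and 7.33 against 8.20 and 8.37, with an interval from -1.91 to 0.35. Without E13.5 CNH replicate 1 the count against E9.5 was 5, with Hoxb2 (-0.73, adjusted p = 0.0477), Hoxb3 (adjusted p = 0.0233) and Hoxb13 (adjusted p = 0.0386) added, the last undetected in both regions. Hoxb5 was called without E11.5 P-CNH replicate 1 (0.77, adjusted p = 0.0244) or replicate 2 (0.78, adjusted p = 0.0235), and Hoxb3 with the replicate block (-1.26, adjusted p = 0.0479). Hoxb8, undetected in both regions, was called without CLE replicate 2 (adjusted p = 0.0389) or replicate 3 (adjusted p = 0.0267) and without the 4 dimmest arrays (adjusted p = 0.00592), which gives no fold.

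Paralogues at E13.5 against E9.5 were lower for 12 of 18 and higher for 2, with Hoxc13 at 2.69 (SE 0.32) and Hoxc6 at -2.39 (SE 0.35). Upstream genes were lower for 10 of 17 and higher for 1, with Lin28 at least 20.3-fold lower (-6.19, SE 0.93) and Cdx4 at -3.39 (SE 0.49). Streak markers were lower for 4 of 5, with sums of 30614 and 31685 at E9.5 and of 21888 and 10744 at E13.5, led by T. Of 4 surface ectoderm markers 2 were higher, Krt14 (at least 26.5-fold) and Trp63 (at least 8.03-fold), with sums of 208 and 222 at E9.5 and of 2786 and 2766 at E13.5, led there by Krt14. All 3 endothelial markers were higher, summed at 108 and 130 and at 676 and 512. Chrd, Meox1, Bmp4, Olig3 and Ctsh of the other tissue lists were also higher, and Noto, Nkx1-2 and Hbb-bh1 lower. Of 4 markers of anterior neurectoderm 1 was higher. Whether these tissues had a part in the Hoxb differences was not tested.

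Region means are not adjusted for batch, so their order across batches rests on the arrays as normalised. Ordered by these means, Hoxb1 ran from 12.32 in E7.5 PP to 5.59 in E7.5 A, and 2 of the 15 pairs of neighbours in that order had arrays that did not overlap. Hoxb2 ran from 11.44 in CLE to 6.67 in A (3 such pairs), Hoxb4 from 10.12 in E10.5 P-CNH to 4.65 in A (3) and Hoxb5 from 11.04 in E13.5 CNH to 5.27 in A (6). Hoxb6 was highest in St5 at 10.69 and lowest in A at 4.56 (4), and its St5 arrays lay above those of CLE, the next region. Hoxb7 ran from 12.28 in E12.5 CNH to 4.76 in A (6), and Hoxb9 from 10.18 in E10.5 P-CNH to 4.63 in A (6). Sorting by the mean places like regions side by side, so these counts do not describe regions further apart in the order. Hoxb6, for example, had means of 10.69 in St5 and 7.76 in RN. In the fit with batch terms the highest region was E12.5 CNH in place of E10.5 P-CNH for Hoxb3, Hoxb4 and Hoxb9, and St1 in place of CLE for Hoxb2. For Hoxb1, Hoxb5, Hoxb6 and Hoxb7 it was the region named, and the lowest was A for these 8 genes but Hoxb3, lowest in St5.

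The 4 probes of Hoxb3 did not move together. Their correlations over the 36 arrays, which share batches and depth, ranged from -0.10 to 0.35, against 0.979 for the pair of Hoxb1 and 0.980 for that of Hoxb7. The probe with the highest mean ran from 8.39 in E10.5 P-CNH to 5.00 in A. Another Hoxb3 probe, ILMN_1232276, was detected on both E9.5 CNH arrays at 6.31 and 6.66 and on no NSB array, at 5.35, 5.59 and 4.72. That probe was at least 1.5-fold higher in E9.5 CNH (adjusted p = 0.00655). Other Hoxb3 probes were detected in NSB, so this is no bound for the gene. A further probe, ILMN_2450689, read 6.73 and 6.34 in E10.5 CNH, detected, and 4.66 and 4.6 in E9.5 CNH, undetected.

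The 2 dimmest members kept to the lower end of the scale. Hoxb8 read 5.85, 5.88 and 4.66 in NSB, the last undetected, and 5.72, 4.72 and 7.40 in CLE, detected on the last alone. CLE replicate 3 was its highest array. Hoxb13 read 5.36, 4.62 and 6.60 in E11.5 CNH, detected on the last, and 5.50 and 6.13 in E11.5 P-CNH, detected on the second. Its E12.5 arrays lay within the E11.5 CNH range, and the interval from E11.5 to E12.5 ran from 0.02 to 1.45, uncalled. Without E11.5 CNH replicate 3, the only one of that region on which it was detected, it was called (adjusted p = 0.0427).

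Pearson correlations over the 16 regions, which share batches and the low values of E7.5 A, describe how alike the members were. They were taken over region means adjusted for batch, an adjustment that rests on NSB replicate 3 for the regions of batch 1. Neighbours in the cluster reached 0.891 for Hoxb1 and Hoxb2, 0.853 for Hoxb3 and Hoxb4, 0.886 for Hoxb5 and Hoxb6 and 0.893 for Hoxb6 and Hoxb7. They were lower for Hoxb2 and Hoxb3 (0.174), Hoxb4 and Hoxb5 (0.520), Hoxb7 and Hoxb8 (-0.06), Hoxb8 and Hoxb9 (0.136) and Hoxb9 and Hoxb13 (0.225). Over unadjusted means, a choice made after the data were seen, these became 0.363, 0.584, 0.13, 0.390 and 0.088 in the same order. The other neighbours then ranged from 0.815 to 0.896. The highest of all pairs was Hoxb5 with Hoxb7, at 0.961 (0.955 unadjusted). Hoxb7 and Hoxb9, on either side of Hoxb8, reached 0.885 (0.80 unadjusted).

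Among genes outside the cluster, Cdx2, a caudal transcription factor, was the most alike for Hoxb1 (0.938) and Hoxb2 (0.963) over the 16 region means adjusted for batch. Fzd10, a Wnt receptor, followed for Hoxb2 (0.918) and was the most alike for Hoxb5 (0.940), ahead of Notum (0.930), an inhibitor of Wnt signals. The Hox genes Hoxa7 and Hoxd4 were the most alike for Hoxb6 (0.916) and for Hoxb7 (0.955), and Hoxd4 for Hoxb9 (0.940). For Hoxb4 it was Rps6ka3 (0.896, and 0.728 over unadjusted means). Hoxb3, Hoxb8 and Hoxb13, which were undetected in many regions, reached 0.929, 0.881 and 0.940 with their nearest genes, and 0.474, 0.651 and 0.702 with the same genes over unadjusted means.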

How the data were processed

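The authors deposited 1 table of non-normalised intensity, the mean over the beads of each probe, for 36 Illumina MouseWG-6 v2.0 arrays. It also held the deposited detection p-value of each probe and array, which compares a probe with the negative controls of its array. Per the study's methods the authors went on to adjust background, transform and normalise in lumi and to correct batches with ComBat, and none of those steps is in the table. All value columns were matched to samples by name.

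Here intensities were corrected with neqc (normexp with an offset of 16, negative controls inferred from detection p-values, quantile normalisation, log2) in limma 3.58.1 under R 4.3.3. Tests covered 21712 probes, each detected (limit 0.01) on 1 or more arrays, and 23569 were left out. A linear model with terms for 16 regions and 3 batches (18 residual degrees of freedom) and moderated tests gave 20 comparisons, adjusted by Benjamini-Hochberg over all tested probes of each. The arrays came from 6 BeadChips, and 4 regions had 3 arrays and 12 had 2. The fits were tested on simulated data, and the outcome is not reported here. Precision is limited by the number of arrays.

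Alternatives changed the background correction, offset, normalisation, batch term, BeadChip or replicate block, filter, probe of a gene and arrays used, or left out each array in turn. The members and lists were chosen with earlier results of these data known. All 10 members were described. Of other lists a count and at most 2 genes per comparison were given, those called with arrays that did not overlap and with the largest difference. A gene that this rule would name is not reported here. The genes most alike a member were those outside the cluster with the highest Pearson correlation over 16 region means adjusted for batch. The lists were paralogues of Hoxb genes (18 of 21 tested), signals and factors upstream (17 of 19), Hox cofactors (9 of 9), genes that flank the cluster (6 of 10) and markers of the 10 tissues named in the text. The upstream and streak lists share Fgf8, T and Wnt3a.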

Additional observations from a re-analysis of the deposited data

Results flagged for a closer look

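The change of Hoxb7 from E7.5 to E8.5 differed between 2 pairs of regions. The difference from PP to St5 minus that from P to NSB was -1.32 on the log2 scale (SE 0.33, adjusted p = 0.0380 in limma, 385 of the 21712 tested probes called). Hoxb7 went from 10.06 and 9.85 in PP to 11.61 and 11.47 in St5, and from 8.17 and 8.20 in P to 11.00, 10.85 and 10.97 in NSB, so all arrays were higher at E8.5 in both pairs and the step was smaller from PP. A test of the difference between the pairs marked it out. This test and the 2 of CNH over P-CNH at E10.5 and at E11.5 minus E9.5 were not in the fixed design and were chosen after the data were seen. The call was lost with no background subtracted, with cyclic loess, with batch means removed and with the replicate block (-1.70 to -0.61 over 13 alternatives). It was also lost in 17 of the 36 fits without 1 array, those without A replicate 1, or an array of P, PP, St1, St5, E9.5 CNH, E9.5 P-CNH or E10.5 CNH, or NSB replicate 1 or 2 (-1.43 to -1.22, adjusted p up to 0.162). The other pair of tests gave 0 Hoxb genes in limma, with 0 at an unadjusted p under 0.05 in each, against 446 and 1272 of all tested probes.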

How the results depend on the processing

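All 28 called differences of Hoxb genes kept their direction. They include that between pairs of regions and that of Hoxb13 at E13.5, which adds no support. Of 386 alternative values 330 kept the call and 56 lost it. Of the values that kept it, 26 moved by over 1.5 times on the log2 scale, most with no background correction or an offset of 100. Of 2407 values of uncalled differences 74 became called and 177 changed sign. Counts of called Hoxb genes moved as follows, in limma, and the cause was not tested.

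With no background correction, and likewise with an offset of 100, the counts were 1 in PP against P (from 2), 2 in St5 against St1 (from 1) and 1 in E9.5 CNH against NSB (from 0). With cyclic loess they were 0 in St5 against PP (from 2), 1 in E9.5 CNH against NSB and 2 in E13.5 against E12.5 (from 4). With no batch term they were 0 in St5 against St1, 1 in CLE against NSB (from 0), 1 in E9.5 CNH against NSB and 0 in E13.5 against E12.5. With batch means removed before the fit they were 0 in PP against P, 0 in St5 against St1, 2 in CLE against NSB, 2 in E9.5 CNH against NSB and 0 in E9.5 CNH against CLE (from 1). The same setting gave 1 in E10.5 against E9.5 CNH and 1 in E11.5 against E10.5 CNH (each from 0).

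With the BeadChip as a random block (correlation 0.483) they were 1 in CLE against NSB, 1 in E9.5 CNH against NSB, 0 in E9.5 CNH against CLE, 2 in E10.5 CNH against NSB (from 0) and 1 in E13.5 against E9.5 (from 2). With no filter the count was 0 in St5 against St1, and with the mean of all probes of a gene 1 in E9.5 CNH and 1 in E10.5 CNH against NSB. Batch 1 alone gave 1 in RN and 1 in St1 against NSB (each from 0), 5 in St5 against St1 and 3 in E10.5 CNH against NSB. With its BeadChips as a block, a fit chosen after seeing the data, these were 2, 1, 6 and 3. Batches 2 and 3 alone gave 0 in E9.5 CNH against CLE and 1 in E13.5 against E12.5.

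The replicate block gave 1 in E9.5 CNH against NSB and 0 in E9.5 CNH against CLE, and moved no other count by over 1.5 times. Deviations of arrays with the same number correlated from -0.72 to 0.74, and 19 of 36 arrays lay nearest their own number, so over all arrays the numbers were not taken to pair them. Within batch 1 each number is 1 BeadChip.

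Further fits chosen after seeing the data were one without the 4 arrays with the fewest detected probes and one that adjusts for how many probes were detected. The first gave 1 in St1 against NSB, 3 in St5 against St1, 4 in CLE against NSB, 4 in St5 against PP, 4 in E9.5 CNH against NSB, 2 in E9.5 CNH against CLE, neither of them Hoxb2, 2 in E10.5 CNH against NSB, 1 in E10.5 against E9.5 CNH and 2 in E13.5 against E12.5. The second gave 1 in E9.5 CNH and 1 in E10.5 CNH against NSB and 2 in E13.5 against E12.5.

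Without each array in turn the counts ran from 4 to 5 in P against A, 2 to 3 in PP against P, 0 to 2 in St5 against St1, 0 to 1 in CLE against NSB and 3 to 4 in NSB against P. They ran from 5 to 7 in CLE against P, 1 to 2 in St5 against PP, 0 to 1 in E9.5 CNH against NSB, 0 to 2 in E9.5 CNH against CLE, 0 to 1 in E12.5 against E11.5, 0 to 5 in E13.5 against E12.5 and 2 to 5 in E13.5 against E9.5. In the other 8 comparisons the count was 0 each time. A region left with 1 array is assumed to vary like the others. Without NSB replicate 3, CLE, E9.5 CNH and P against NSB, St5 against PP, and both steps to and from E10.5 CNH could not be estimated.

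With cyclic loess the median of all probes went from 0.07 to -0.08 in E9.5 CNH against NSB, 0.06 to -0.08 against CLE, -0.06 to 0.07 in E10.5 against E9.5, -0.08 to 0.06 in E13.5 against E12.5 and -0.12 to 0.12 in E13.5 against E9.5. Detection on at least 1 array gave 9 genes in NSB, CLE and E11.5 CNH and 8 in E9.5 P-CNH, E11.5 P-CNH and E13.5 CNH. Detection by any probe of a gene, also chosen after seeing the data, moved no count by over 1.5 times. Detection at a p-value under 0.05 gave 6 in P and 8 in PP, CLE, E9.5 P-CNH and E11.5 P-CNH. Detected probes stood 2.28 (CLE replicate 1) to 15.1 times (PP replicate 2) over background, 2.33 on E13.5 CNH replicate 2 and 2.89 on NSB replicate 3, which limits low values there.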
